A study of Mus musculus with 2 samples.

Results

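The replication-dependent histone genes supply the proteins that wrap newly copied DNA: the core histones H2A, H2B, H3 and H4 and the linker histone H1. They were taken as the protein-coding rows of the deposited gene table whose names start with Hist1h, Hist2h, Hist3h or Hist4h. This gave 53 of 21542 genes, namely 6 for H1, 11 for H2A, 15 for H2B, 10 for H3 and 11 for H4. GENCODE M21, the mouse annotation used here, lists 67 protein-coding genes with such names, and the 14 without a row in the table were not analysed here.

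The measurements are read counts per gene from RNA sequencing of MIN6, a mouse insulinoma cell line that secretes insulin, labelled as C57BL/6. There was 1 library of cells given a control vector (control cells) and 1 of cells given a vector that expresses GR, the glucocorticoid receptor encoded by Nr3c1 (GR cells). Both dishes received 4 ug of plasmid with 4.8 ul of Lipofectamine 2000 and the cells grew in 25 mM glucose with 15% serum. The labels used here name no time to harvest, no added glucocorticoid, no source species of the GR cDNA and no share of cells that took up plasmid, nor whether the dishes were separate cultures. With 1 library per group there is no replicate check of any difference, and the 95% intervals below cover counting error only. Each compares 2 libraries, not the conditions, and fewer cells in S phase and less histone RNA per cell cannot be told apart in bulk RNA.

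In dividing cells these genes are switched on together in S phase, with the factor NPAT acting at their promoters. Their mRNAs as a rule have no poly(A) tail: the stem-loop binding protein SLBP binds a short hairpin after the stop codon, and the transcript is cut just behind it. Some of the genes can also give longer, polyadenylated transcripts, known above all from cells that have left the cycle. Whether RNA was selected by its poly(A) tail for these libraries is not stated in the labels used here.

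The hairpin is shown because it is the feature that defines the class and because its letters differ between H4 and the rest. A complete match to the consensus stem-loop lay within 200 bases behind the stop codon in an annotated transcript of 40 of the 53 genes, 21 to 54 bases behind it (median 31). Below are the sites of 6 well-read genes that hold it and of 2 less read ones, 5′ to 3′, as DNA letters of the annotated transcripts (GENCODE M21, build GRCm38). Capitals mark the 16 bases of the stem-loop and lower case its 5 neighbours on each side.
Hist1h1c (chr13:23739512-23739527, plus strand): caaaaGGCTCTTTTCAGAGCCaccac
Hist3h2a (chr11:58955172-58955187, plus strand): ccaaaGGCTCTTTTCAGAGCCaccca
Hist3h2ba (chr11:58949349-58949364, plus strand): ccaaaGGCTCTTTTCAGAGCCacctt
Hist1h3g (chr13:23535889-23535904, plus strand): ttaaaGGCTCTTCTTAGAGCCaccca
Hist1h4i (chr13:22040966-22040981, minus strand): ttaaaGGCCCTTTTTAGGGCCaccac
Hist1h1d (chr13:23555787-23555802, plus strand): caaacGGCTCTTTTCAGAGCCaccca
Hist1h3c (chr13:23745047-23745062, minus strand): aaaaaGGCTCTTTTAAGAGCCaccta
Hist1h4j (chr13:21735437-21735452, plus strand): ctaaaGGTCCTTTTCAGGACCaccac

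All 30 matched stem-loops of H1, H2A, H2B and H3 genes began with GGCTC. Of the 10 in H4 genes, 9 began with GGCCC and 1, that of Hist1h4j, with GGTCC. The most common form, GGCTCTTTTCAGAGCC, stood in 22 genes (3 H1, 7 H2A, 8 H2B and 4 H3), and the most common H4 form, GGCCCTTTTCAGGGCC, in 6. A form with A in the loop, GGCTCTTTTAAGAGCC, stood in another 6 genes.

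The targeted gene Nr3c1 had 2645 reads in control cells and 5202 in GR cells, a fold of 1.97 (95% interval 1.88 to 2.07). The libraries held 18537326 and 18525668 reads. Of 12 beta cell markers all 12 were measured with 967436 and 919142 summed reads (fold 0.953, 95% interval 0.9501 to 0.9556). The sum was led by Ins2 (fold 0.917) and Iapp (fold 0.968). Among the 12 markers, 4 intervals lay above 1 and 4 below, with a median log2 fold of 0.019. Over all genes that averaged 10 reads or more, 8.90% lay above and 7.62% below. Of 5 markers of other islet cells, 2 had a row, Gcg with 537 and 623 reads (fold 1.16, 1.04 to 1.31) and Sst with 92 and 114 (summed fold 1.18, 1.06 to 1.31). Of 5 exocrine markers 1 had a row, Krt7 with 2429 and 2166 reads (fold 0.894, 0.844 to 0.948). Of 4 immune markers (216 reads in each library) and 6 fibroblast and endothelial markers (78 and 87 reads), 4 each had a row in the table. The part of these differences in the results below was not tested.

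Together the 53 histone genes had 5440 reads in control cells and 5244 in GR cells, 0.0294% and 0.0283% of the reads. The fold of GR over control cells was 0.967 (95% interval 0.931 to 1.004), so the family's total did not differ beyond counting error. Without Hist1h1c, the most read gene, the fold was 0.957. Reads were very uneven among the genes: the median gene had 9 reads in control cells and 10 in GR cells. There were 10 genes that averaged 50 reads or more over the libraries, and they held 90.3% and 90.5% of the family's reads. Another 15 genes had a mean of 10 to 50 reads, and 28 had fewer than 10.

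**Figure D1:**
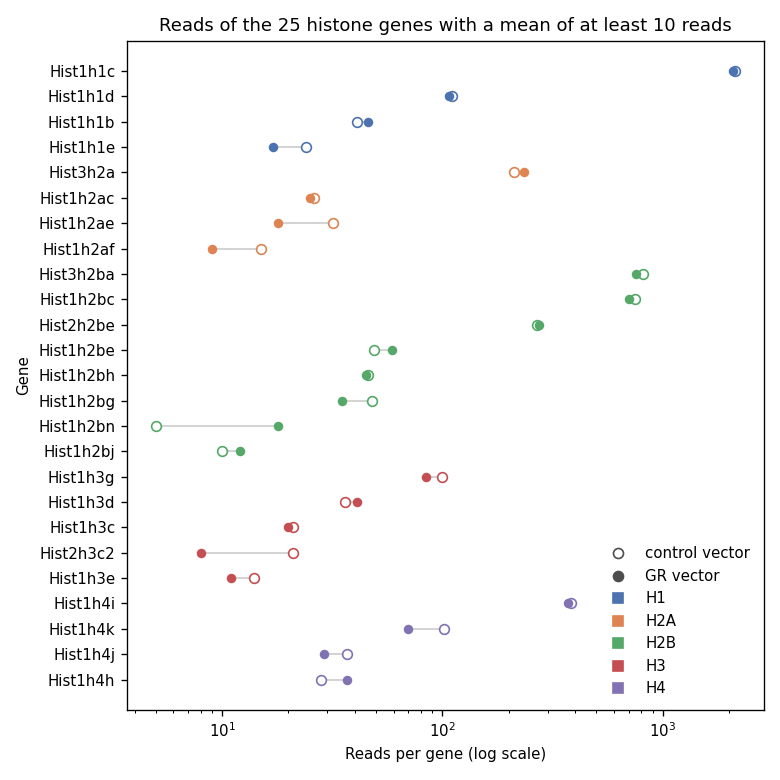
Reads per gene (log axis) in the control-vector library (open circles) and the GR-vector library (filled circles) for the 25 histone genes that averaged 10 reads or more, coloured by class and with 1 library per group. Hist1h1c stands above all others with 2127 and 2083 reads, and the widest gap between the circles is that of Hist1h2bn with 5 and 18 reads.

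Linker histones bind where DNA enters and leaves the nucleosome. Hist1h1c, which encodes H1.2 (ENSMUSG00000036181, chromosome 13, 23738808 to 23740367), had 2127 reads in control cells and 2083 in GR cells (fold 0.982, 95% interval 0.924 to 1.04). This single gene held most of the 2308 and 2262 reads of the H1 class, whose fold was 0.983 (0.927 to 1.04). Hist1h1d, which encodes H1.3, had 110 and 107 reads (fold 0.976, 0.741 to 1.29). The 2 libraries therefore stood within counting error of each other for both well-read linker genes. Hist1h1b had 41 and 46 reads and Hist1h1e had 24 and 17. Hist1h1a had 3 and 9. Hist1h1t, a linker histone of the testis, was the only member with 0 reads in a library. It had 3 reads with the control vector and none with the GR vector, where a count of 0 allows up to 3.

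H2B pairs with H2A on the outside of the nucleosome, and it was the most read core class, with 2014 and 1930 reads (fold 0.961, 95% interval 0.902 to 1.02). Hist3h2ba (ENSMUSG00000056895, chromosome 11, 58948920 to 58949533) had 813 reads in control cells and 754 in GR cells, a fold of 0.930 (0.841 to 1.03). Hist1h2bc (ENSMUSG00000018102, chromosome 13, 23684199 to 23692908) had 750 and 705, a fold of 0.943 (0.849 to 1.05). Both genes had fewer reads with the GR vector, with intervals that include 1. Hist2h2be (ENSMUSG00000068854, chromosome 3, 96221119 to 96223738), had 268 and 275 reads (fold 1.03, 0.867 to 1.22). Hist1h2be had 49 and 59 (fold 1.21, 0.813 to 1.80). The annotated exons of Hist1h2be overlap those of Hist1h1e on the same strand, so reads of these 2 genes may be mixed. The other 11 H2B genes had 1 to 48 reads with the control vector.

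H2A was read much less. Its 11 genes had 318 reads in control cells and 319 in GR cells (fold 1.01, 95% interval 0.859 to 1.18). Hist3h2a (ENSMUSG00000078851, chromosome 11, 58954685 to 58956830) supplied 211 and 234 of them, a fold of 1.11 (0.919 to 1.35). Its annotated exons overlap those of Trim17 on the same strand. Without it the fold of the class was 0.797, so the summed fold of H2A depends on this gene. No interval was computed for that value. Each of the other H2A genes had at most 32 reads in a library and an interval that includes 1. Hist1h2ac had 26 and 25 reads, and Hist1h2ae had 32 and 18. Annotated exons of all 11 H2A genes overlap those of another gene on the other strand, which holds for no gene of the other classes. How strands and reads of overlapping genes were handled is not stated in the labels used here. The part of these overlaps in the low H2A counts was not tested.

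H3 and H4 form the tetramer at the centre of the nucleosome. The 10 H3 genes had 216 and 189 reads (fold 0.878, 95% interval 0.718 to 1.07). Hist1h3g (ENSMUSG00000099517, chromosome 13, 23535422 to 23535951) led them with 100 and 84 (fold 0.842, 0.623 to 1.14), and Hist1h3d had 36 and 41. The 11 H4 genes had 584 and 544 reads (fold 0.934, 0.830 to 1.05). Hist1h4i (ENSMUSG00000060639, chromosome 13, 22040636 to 22041362) had 382 and 372 (fold 0.977, 0.844 to 1.13). Hist1h4k (ENSMUSG00000064288, chromosome 13, 21750194 to 21750505) had 102 and 70 (fold 0.688, 0.5003 to 0.942). Hist1h4k was the only gene among the 10 best read whose interval excluded 1. In all 5 classes the interval of the summed reads included 1.

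Read totals follow transcript length, so levels between genes were compared per kilobase of gene length as deposited. On this scale Hist1h1c (1363 reads per kb with the control vector, 1335 with the GR vector) and Hist3h2ba (1324 and 1228) stood side by side. They were followed by Hist1h2bc (649 and 610) and Hist1h4i (525 and 512). Hist1h4k had 327 and 224 and Hist1h3g 189 and 159 reads per kb. Hist2h2be (102 and 105) and Hist3h2a (98.3 and 109) came next and lay close together. Hist1h1d, with a long annotated transcript of 7425 bases, had only 14.8 and 14.4. The order of these genes was the same in both libraries, except that Hist3h2a stood just above Hist2h2be with the GR vector.

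Of the 25 genes that averaged 10 reads or more, the interval of 1 lay above 1 and that of 2 lay below 1. Over all 15035 genes with such reads these shares were 8.90% above and 7.62% below, so the histone counts are near the background. These shares, here and beside the lists, were not matched for depth, on which the width of an interval depends. A mean of 50 reads or more was reached by 12119 of the 15035 genes and by 10 of the 25 histone genes. The gene above was Hist1h2bn, with 5 reads in control and 18 in GR cells (fold 3.61, 95% interval 1.29 to 12.4). The 2 genes below were Hist1h4k and Hist2h3c2, the latter with 21 and 8 reads (fold 0.382, 0.146 to 0.898). With a limit of 1.5-fold, 1 gene was higher (Hist1h2bn) and 3 were lower (Hist2h3c2, Hist1h2ae with 32 and 18 reads, and Hist1h2af with 15 and 9). The background shares at that limit were 2.85% higher and 3.34% lower. All 4 had a mean of at most 25 reads, and none of the 10 best-read genes passed 1.5-fold. Hist1h2bn reached a mean of 10 only through the GR library, and Hist2h3c2 and Hist1h2af only through the control library. Their calls therefore rest on a filter met only where each gene was high, and are no support for a difference.

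**Figure D2:**
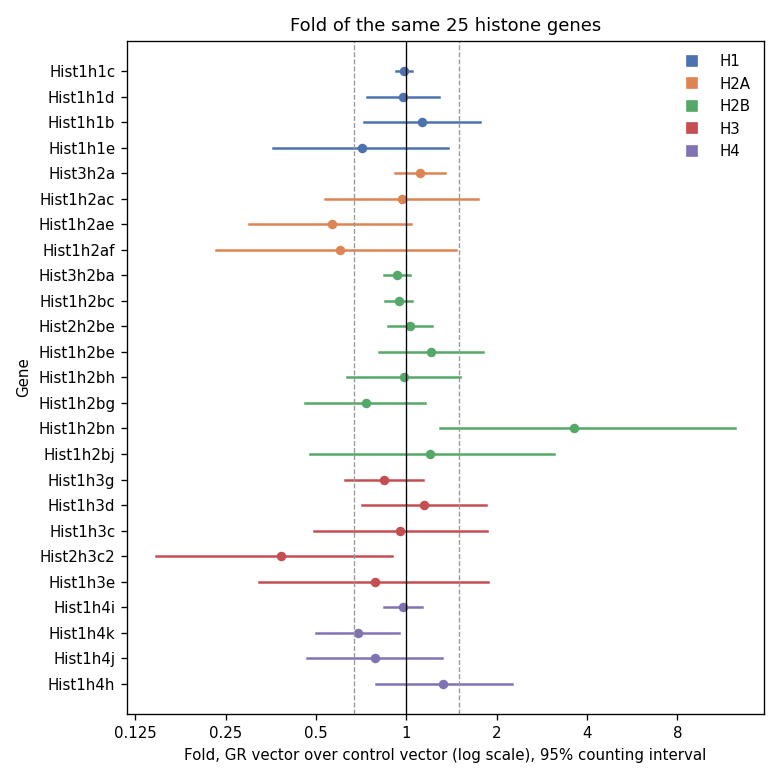
Fold of the GR library over the control library (log axis) with its 95% counting interval for the 25 histone genes that averaged 10 reads or more, coloured by class. The solid line is 1 and the dashed lines are 1.5-fold either way. Intervals that leave out 1 belong to Hist1h2bn (fold 3.61), Hist2h3c2 (0.382) and Hist1h4k (0.688).

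The median log2 fold of the 25 genes was -0.05, against 0.0030 over all genes that averaged 10 or more. Above 0 lay 8 of the 25 and below 0 lay 17, where 50.7% of all such genes lay above 0. By class, 1 of 4 H1, 1 of 4 H2A, 4 of 8 H2B, 1 of 5 H3 and 1 of 4 H4 genes lay above 0. Most of these differences were small beside counting error: 22 of the 25 intervals included 1.

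In the authors' deposited table, 0 of the 53 histone genes passed an adjusted p under 0.05, and each had an adjusted p of 1. Of all genes 0.0186% passed. At an unadjusted p under 0.05 there was 1 histone gene, Hist1h2bn, with p = 0.0334 and a log2 fold change of 1.83 in the authors' deposited table, where 1.09% of all genes reached that level. Hist1h2bn was likewise the 1 histone gene in the authors' deposited list of 233 genes (1.08% of the table). An exact test of edgeR with a preset dispersion of 0.04 or 0.01 called no histone gene after Benjamini-Hochberg adjustment. With 0.04 it returned the deposited p-values (largest difference 4.45e-08), so that run is no separate check of them.

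Near-identical copies make the counts of single histone genes uncertain. Of the 53 genes, 41 share 25% or more of their 31-mers (stretches of 31 bases) with another annotated gene, and the median share was 55.2%. Matches on either strand were counted, also those to a gene that overlaps at the same place. Hist3h2a (32.1%) shared most with the overlapping Trim17, and Hist1h1e (34.7%) with the overlapping Hist1h2be. The labels used here do not state how reads that match several genes were counted. The genes named above for their intervals all shared 25% or more: 88.0% for Hist1h2bn, 86.2% for Hist1h4k and 64.2% for Hist2h3c2. Among the 6 genes with under 25% shared and an average of 10 reads or more, 0 had an interval that excluded 1. The least shared of the well-read genes were Hist2h2be (2.82%), Hist1h1d (3.72%) and Hist1h1c (11.4%), with folds of 1.03, 0.976 and 0.982. The 12 genes with under 25% shared had 2651 and 2630 reads (fold 0.995, 95% interval 0.942 to 1.05), and the 41 others had 2789 and 2614 (fold 0.940, 0.891 to 0.992). Taking only the less shared genes moved H2B from 0.961 to 1.06 and H4 from 0.934 to 1.09. For H2B this left Hist2h2be and Hist1h2be. For H4 it left Hist1h4d, Hist2h4, Hist4h4 and Hist1h4c, with 3 to 11 reads per library each. All these genes had intervals that include 1, and no interval was computed for the 2 moved folds. The part of near copies or of overlapping genes in these differences was not tested.

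Genes were grouped by where the annotated transcript with the longest 3′ UTR ends. This transcript ran at least 100 bases past the stem-loop in 22 genes, which held 4011 and 3874 of the reads (73.7% and 73.9%), with a median of 29 and 21.5 reads per gene. Hist1h1c alone supplied 2127 and 2083 of those reads. In 17 genes the transcript ended nearer to the stem-loop, and these held 217 and 205 reads (3.99% and 3.91%), with a median of 7 and 5. In 8 genes the annotation ended at the stop codon (181 and 167 reads). In the other 6 genes that transcript has a 3′ UTR with no complete stem-loop (1031 and 998 reads, 18.95% and 19.03%). Among those 6 are Hist1h2bc, annotated with 2 exons, Hist2h2be, and Hist1h2bp, whose complete stem-loop lies in another of its annotated transcripts. Gene models of different length collect reads over different stretches, and no order between these groups was tested.

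A polyadenylation hexamer (AATAAA or ATTAAA) stood in the last 50 bases of the annotated transcript in 15 of the 53 genes. The share over all genes was not computed. Those 15 histone genes held 3975 and 3883 reads (73.1% and 74.0% of the family), a fold of 0.980 (95% interval 0.937 to 1.02). Of these reads Hist1h1c alone had 2127 and 2083. The 38 others held 1465 and 1361 (fold 0.932, 0.865 to 1.004). They include the 8 genes whose annotation ends at the stop codon, where no hexamer could be found. Of the 6 most read genes, 5 carried it (Hist1h1c, Hist3h2ba, Hist1h4i, Hist2h2be and Hist3h2a) and Hist1h2bc did not. The folds of both groups lay within counting error of 1.

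**Figure D3:**
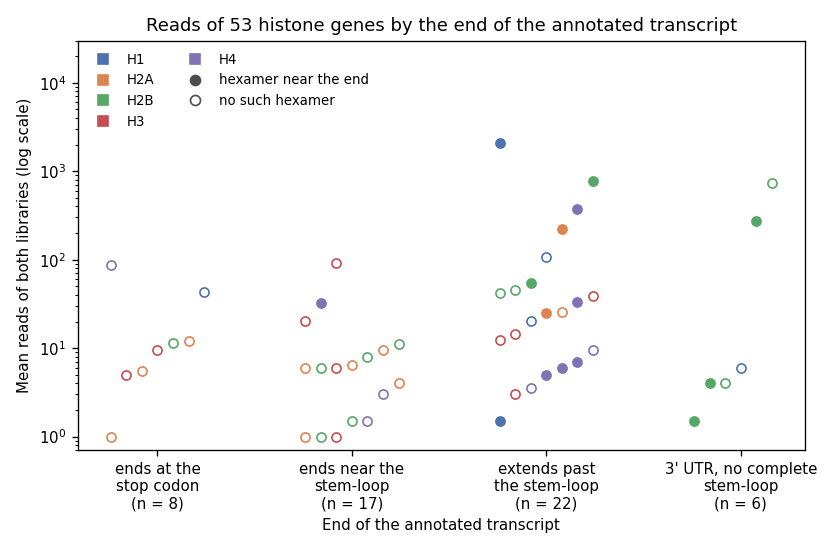
Mean reads of both libraries (log axis) for the 53 histone genes, split by where the annotated transcript ends and coloured by class, with filled circles where a polyadenylation hexamer stands in its last 50 bases. Of the 6 genes above 200 reads, 4 have a transcript that extends past the stem-loop and 2 have a 3′ UTR with no complete stem-loop.

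Many histone genes stand head to head and share the stretch between their start sites. There were 9 such pairs with start sites less than 1000 bases apart (175 to 659 bases), and 8 of them joined an H2A to an H2B gene. The H2B gene had more mean reads in 6 of the 8 and the H2A gene in 2. The widest gaps were Hist1h2ac with 26 and 25 reads beside Hist1h2bc with 750 and 705, and Hist2h2ac with 7 and 1 beside Hist2h2be with 268 and 275. In both pairs the H2B gene was far higher in each library. Each H2A gene overlaps another gene on the other strand, and the part of this in the gaps was not tested. These 2 intervals are printed because each lies before a well-read and a little-read gene. They are RefSeq sequence of GRCm38.p6, minus strand, 5′ to 3′, so that the H2A gene starts behind the right end and the H2B gene starts before the left end on the other strand. Capitals mark 3 motifs on either strand: the CCAAT box, the TATA box (letters TATAAA) and the octamer, whose letters are ATGCAAAT.
Hist1h2ac and Hist1h2bc (chr13:23683960-23684198): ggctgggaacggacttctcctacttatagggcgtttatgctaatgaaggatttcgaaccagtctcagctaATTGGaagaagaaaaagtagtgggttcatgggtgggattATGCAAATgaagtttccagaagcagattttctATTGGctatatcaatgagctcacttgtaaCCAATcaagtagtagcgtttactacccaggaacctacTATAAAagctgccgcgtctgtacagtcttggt
Hist2h2ac and Hist2h2be (chr3:96220881-96221071): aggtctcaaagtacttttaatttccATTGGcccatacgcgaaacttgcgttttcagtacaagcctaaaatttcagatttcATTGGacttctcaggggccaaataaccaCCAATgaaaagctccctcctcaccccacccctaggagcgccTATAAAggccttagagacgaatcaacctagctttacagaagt

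Each printed stretch holds 3 CCAAT and 1 TATAAA, and that of Hist1h2ac and Hist1h2bc also holds 1 ATGCAAAT. The stretches were cut at annotated starts and cover 239 of the 250 and 191 of the 238 bases between the genes. What they hold therefore depends on where they were cut. RefSeq promoter windows (250 bases before to 50 after the start) were matched for 48 of the 53 genes and searched on both strands. Hist1h2bc and Hist2h2be, the H2B genes of the printed stretches, were among the genes without a matched window. CCAAT, the letters bound by NF-Y, stood in 41 of the 48 (85.4%), against 41.1% of 27025 genes with a window. It was in all 6 H1, 11 H2A, 13 H2B and 8 H3 windows but in 3 of 10 H4 windows. TATAAA stood in 29 of 48 (60.4%, against 15.7%). The octamer ATGCAAAT, the letters bound by OCT1, stood in 6 of 11 H2A and 5 of 13 H2B windows and in none of H1, H3 or H4, against 1.97% of all genes. Among these H2A windows is that of Hist2h2ac, although the stretch printed for its pair holds no ATGCAAAT. Windows of head-to-head genes overlap, so these counts are not independent.

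Histone genes outside the Hist clusters, mostly replacement variants whose mRNAs are polyadenylated and made throughout the cycle, had far more reads. The 13 measured of 17 listed had 74113 and 71463 reads, 13.6 times the reads of the 53 genes in each library. For H1, H1f0 and H1fx together had 20198 and 19034 reads, and per kilobase 7.30 and 6.99 times the 6 cluster genes. For H2A, the 6 genes H2afz, H2afv, H2afx, H2afy, H2afy2 and H2afj had 25160 and 23692 reads, per kilobase 48.2 and 49.3 times the cluster genes. For H3, H3f3a, H3f3b, H3f3c and the centromeric Cenpa had 28654 and 28642 reads, per kilobase 27.6 and 31.5 times. The cluster genes were thus the smaller part of the histone reads in each class that has such variants here. Since poly(A) selection, which would deplete mRNAs without a tail, is not stated, less RNA in the cells and less capture of it cannot be told apart in these ratios. The part of the other-strand overlaps of the H2A cluster genes in their ratio was not tested.

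**Figure D4:**
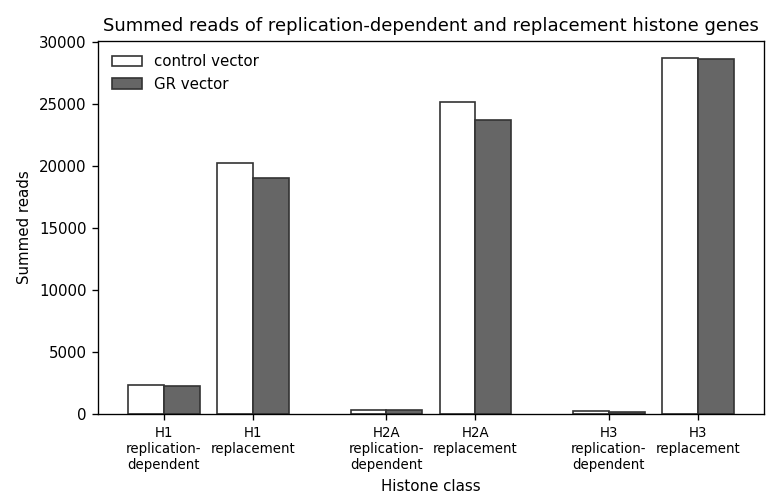
Summed reads (linear axis from 0) of cluster histone genes and of replacement histone genes for H1, H2A and H3, with open bars for the control-vector and filled bars for the GR-vector library. The replacement bars stand between 19034 and 28654 reads, and those of the cluster genes between 189 and 2308.

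Of the 13 genes outside the clusters, the interval of 0 lay above 1 and that of 2 below (8.90% and 7.62% over all genes that averaged 10 reads or more). H1f0, the linker histone of resting and differentiated cells, had 17869 reads in control cells and 16777 in GR cells (fold 0.942, 95% interval 0.922 to 0.962). H2afz, which encodes H2A.Z, had 11986 and 10820 (fold 0.905, 0.882 to 0.929). H3f3b, a gene of H3.3, had 22825 and 22879 (fold 1.01, 0.987 to 1.02), and H3f3c had 55 and 63. The fold of all 13 together was 0.967 (0.957 to 0.977), the same to 3 digits as that of the 53 cluster genes, with a narrower interval from more reads.

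Genes that make and handle histone mRNA were measured for 30 of 32 listed, with 6 intervals above 1 and 4 below, and a median log2 fold of 0.0079. Over all genes that averaged 10 or more reads, 8.90% of intervals lay above 1 and 7.62% below. Slbp, the stem-loop binding protein, had 3090 and 3185 reads (fold 1.03, 0.984 to 1.09), and Npat had 1951 and 1963 (fold 1.01, 0.947 to 1.07). Neither differed beyond counting error. Sympk, the scaffold of the cleavage complex, had 6244 and 5793 (fold 0.930, 0.898 to 0.964). Snrpb had 4898 and 4650 (fold 0.952, 0.915 to 0.991), and Snrpe had 671 and 506 (fold 0.756, 0.673 to 0.850), both encoding Sm proteins. Zfp473, a component of the U7 complex that cuts histone mRNA, had 102 and 79 (fold 0.777, 0.572 to 1.05). The 6 genes with intervals above 1 were Snrpf, Prkdc, Eri1, Ccne1, Ncbp1 and Cstf2. Among them Snrpf, a further Sm gene, had 453 and 516 reads (fold 1.14, 1.005 to 1.30).

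Chaperones and early acetylation factors of new histones (24 of 24 measured) had 4 intervals above 1 and 3 below (8.90% and 7.62% over all genes), with a median log2 fold of 0.02. Mcm2, a helicase subunit that also binds H3 and H4, had 18459 and 17756 reads (fold 0.965, 95% interval 0.945 to 0.985), and the centromere chaperone gene Hjurp had 10089 and 9958 (fold 0.990, 0.963 to 1.02). Atrx and Nap1l1 differed most in this list, with folds of 1.11 (1.06 to 1.16) and 1.097 (1.06 to 1.13). S-phase genes (20 of 20 measured) had 0 intervals above 1 and 3 below, beside the same background of 8.90% and 7.62%. There Pcna, the sliding clamp of DNA polymerase, had 11477 and 11614 reads (fold 1.01, 0.989 to 1.04), and Mcm4 had 13528 and 13726 (fold 1.02, 0.994 to 1.04). Tk1 had 1608 and 1346 (fold 0.840, 0.780 to 0.903) and Cdt1 had 2882 and 2707 (fold 0.942, 0.894 to 0.993). The median log2 fold of this list was 0.00037.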

How the data were processed

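The authors deposited a normalized signal per gene, read counts scaled to a common library size. The submitters' processing notes name DESeq2 1.10.1, and for the aligner, counter and build the sources used here give nothing. Dividing by 1 step per library gave whole reads for 100% of values (within 0.01 reads). The deposited log2 fold change and p-value columns, and the deposited enrichment scores, were printed as the authors'. Folds use TMM scaling (edgeR 4.0.16) with Clopper-Pearson 95% intervals, log2 folds a pseudocount of 0.5 reads, and calls an average of 10 reads or more. The edgeR exact test with a preset dispersion of 0.04 called 4 of 21542 genes and with 0.01 called 16. It and the intervals were tested on simulated data. Of the gene IDs, 21516 occur in GENCODE M21. Features were taken from the annotated transcript with the longest 3′ UTR.

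The members and gene lists were chosen with earlier results of these data known. By rule, members averaging 50 reads or more were named, then those with the extreme folds at 10 to 50 reads or with 0 reads, and from each list the 2 most read and 2 most different genes, with Slbp and Npat. Other named genes and the printed sequences were chosen after values were seen. Alternatives were scaling, read filter, pseudocount, shared 31-mers, GC trend and fold limit. No test of the conditions was possible, since each group has 1 library.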

Additional observations from a re-analysis of the deposited data

How the results depend on the processing

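The fold of the summed histone reads (0.967) ran from 0.957 to 0.995 over total-read scaling, exclusion of genes with 25% or more shared 31-mers, removal of the GC trend and exclusion of Hist1h1c. The median log2 fold (-0.05) stayed between -0.07 and 0.0077 over its 6 alternatives and was above 0 only with the less shared genes. The count of intervals that exclude 1 (3 genes) was 0 with the less shared genes and 1 with genes that averaged 50 reads or more. The count past 1.5-fold (4 genes) was 0 in both of these settings, 20 with no filter on reads (9 higher and 11 lower) and 2 at a limit of 2-fold. These settings kept fewer genes, left out near copies and some overlapping genes, let in less read genes or used a stricter limit. Which of these moved the counts was not tested. No histone gene passed the deposited adjusted p, a repeated adjustment or edgeR's exact test with either dispersion, while 1 passed the deposited unadjusted p. The repeated adjustment used the deposited p-values and edgeR with 0.04 returned them, so only the dispersion of 0.01 was a different setting. No paired analysis was possible because each group has 1 library. Depth limits the 28 genes with a mean under 10 reads, whose summed fold of 1.05 has an interval of 0.816 to 1.36.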

Other observations

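Histone pseudogenes outside the rule had reads too. Hist3h2bb-ps had 10 reads in each library. The H3.3 pseudogene H3f3a-ps1 had 108 reads in control cells and 98 in GR cells (fold 0.910, 95% interval 0.685 to 1.21), and H3f3a-ps2 had 21 and 25. In the authors' deposited enrichment report, the gene sets named for systemic lupus erythematosus and alcoholism, which are known to hold many histone genes, had normalized enrichment scores of 1.00 and 0.999. They stood 114th and 164th of 307 sets in the authors' deposited report, with q-values of 0.978 and 0.982. The nominal p is listed there as 0 for the lupus set and 0.5 for the alcoholism set in the authors' deposited report.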
